A study of Homo sapiens with 27 samples.

Results

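The upper steps of glycolysis are encoded by small families of paralogous genes, and 9 of them were followed here: the hexokinases HK1 and HK2, the isomerase GPI, the phosphofructokinases PFKL, PFKM and PFKP, and the bifunctional regulators PFKFB2, PFKFB3 and PFKFB4. They were chosen by name from a count table of 20268 genes, by a rule that itself uses no measured value. The choice was made with earlier results of these data known, and all 9 passed the expression filter in each cell line. Hexokinases trap glucose in the cell by phosphorylating it, GPI converts the product to its fructose isomer, and phosphofructokinase adds a further phosphate in the step that commits the sugar to glycolysis. The PFKFB enzymes make and break down a sugar bisphosphate that activates phosphofructokinase. Paralogs of each enzyme differ in tissue distribution and regulation, and many prostate tumours are less dependent on glucose than other carcinomas until they reach an advanced stage.

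The libraries were made from 3 human prostate cancer cell lines after stable knockdown of CPSF1, a subunit of the complex that recognizes the polyadenylation signal AATAAA and cleaves mRNA precursors. LNCaP cells are hormone-sensitive, while LNCaP95 and 22Rv1 cells are hormone-insensitive. Each line was infected with pGIPZ lentivirus coding for a control hairpin (CTRL sh) or for 1 of 2 different CPSF1 hairpins, called CPSF1 sh1 and CPSF1 sh2, and 3 libraries were made per group, 27 in all. All groups, controls included, carried the vector and had been selected with puromycin, and cells were seeded at 500000 per well and harvested after 72 h. LNCaP and 22Rv1 cells grew in RPMI with 10% fetal bovine serum, and LNCaP95 cells in medium free of phenol red. No source used here says whether the replicates were separate infections, so p-values measure the spread between these libraries, which may be in part technical.

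Polyadenylated RNA was sequenced on paired-end stranded libraries, and 8515624 to 15904518 fragments per library fell on genes. Levels are given as normalized CPM (counts scaled to library size), scaled by TMM within each line, and levels of different genes are compared only as TPM, which also divides by exon length. CPSF1 itself held 150.3, 149.7 and 152 CPM in the LNCaP CTRL sh libraries against 86.2 to 108 CPM with both hairpins. The LNCaP95 libraries held 128, 97.0 and 117 CPM against 57.1 to 68.2 CPM, and those of 22Rv1 189, 182 and 182 CPM against 111 to 141 CPM. It was 1.57-fold lower in LNCaP, 1.85-fold lower in LNCaP95 and 1.41-fold lower in 22Rv1 cells, with no overlap between groups in any line. All 9 markers of luminal prostate epithelium (among them KLK2, KLK3 and KRT8) were above 1 TPM in each line. Markers of other cell types were low: the 3 immune markers summed to at most 1.95 TPM, and the highest others were COL1A1 at up to 35.1 TPM in LNCaP95, KRT14 at up to 12.8 TPM in LNCaP and LUM at up to 12.5 TPM in 22Rv1 cells. The summed luminal markers went from 5393-5537 to 4224-4432 TPM with knockdown in LNCaP and from 6487-6562 to 4764.5-5086 TPM in LNCaP95 cells, while the ranges overlapped in 22Rv1 cells. The 3 basal markers summed to 2.62-4.36 TPM in LNCaP controls and 7.70-12.9 TPM with knockdown, nearly all of it KRT14, and the 4 fibroblast markers to 10.7-13.1 and 6.70-8.25 TPM, nearly all of it COL1A1, while TP63 and DCN were at 0 in every LNCaP library. The fibroblast markers also went from 17.42-18.17 to 9.82-13.3 TPM in 22Rv1 cells, with no overlap. The 2 endothelial markers, nearly all VWF, went from 7.73-9.76 to 3.23-4.33 TPM in LNCaP and from 0.229-0.433 to 0.629-1.56 TPM in LNCaP95 cells. The part of these shifts in the values of the 9 genes was not tested. In such bulk RNA, fewer cells of a state and less RNA per cell cannot be told apart.

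Because CPSF1 belongs to the complex that reads the polyadenylation signal, a signal hexamer was looked for in each gene. The search covered the last 50 bases of its MANE Select transcript in the GRCh37 genome. Of the 9 genes, 7 held AATAAA there (HK2, GPI, PFKL, PFKM and the 3 PFKFB genes), PFKP held the common variant ATTAAA, and HK1 held neither. Among 18922 transcripts of all genes, 65.2% held AATAAA, 14.4% held ATTAAA alone and 20.4% held neither. These 30-base windows lie in the 3′ UTR at the end of the transcript and run from 5′ to 3′ on the transcribed strand, with the hexamer in capitals, and are shown for the isomerase and for paralogs that moved in opposite directions or by very different amounts.
GPI (chr19:34893288-34893317, plus strand): tgcttcAATAAAtctgtgcttttgttcctt
HK2 (chr2:75120449-75120478, plus strand): attattAATAAAttttaacattttccaaaa
PFKP (chr10:3178964-3178993, plus strand): gaattaATTAAAcatttgcctatgactcca
PFKM (chr12:48540158-48540187, plus strand): agaaattaacAATAAAtatcaagcactgtg
PFKFB2 (chr1:207251129-207251158, plus strand): tgggtaAATAAAattgttgagtaacttgaa
PFKFB4 (chr3:48555117-48555146, minus strand): tctttgcAATAAAtactttttaaaaaataa
PFKFB2 and PFKFB4 hold the same hexamer, as do 65.2% of all transcripts, and their levels moved in opposite directions with knockdown in all 3 lines. Any link between hexamer and change was not tested. The GPI window lies past the 3′ end that the counting annotation gives the gene. It does not hold the target sequence of the morpholino with which the study masked the canonical GPI site. The transcripts used for PFKFB2 and PFKP end before the 3′ ends that the counting annotation gives these genes. Those transcripts end at 207251162 and 3178994, against 207254369 and 3179904 in the annotation. The letters in these windows are a description and do not show which signal was used in these cells.

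With CPSF1 sh, taking both hairpins together, 7 of the 9 genes were lower and 2 were higher in LNCaP cells, 8 were lower and 1 was higher in LNCaP95 cells, and 4 were lower and 1 was higher in 22Rv1 cells (edgeR quasi-likelihood test, adjusted p below 0.05 over all genes tested). Over all genes tested, 31% were called lower and 31.1% higher for LNCaP, 33.7% and 33.2% for LNCaP95, and 14.3% and 12.7% for 22Rv1. PFKFB2 was the only member called higher in all 3 lines, and HK2, PFKL, PFKM and PFKFB4 were called lower in all 3. The median log2 fold change across these 9 was -0.44 for LNCaP, -0.72 for LNCaP95 and -0.07 for 22Rv1 cells, where the median over all genes tested was -0.00036, 0.0013 and -0.0024. The CTRL sh and CPSF1 sh libraries did not overlap for 9 genes of the LNCaP line, 8 of LNCaP95 and 5 of 22Rv1, against 55.6%, 60.0% and 28.2% of all genes tested. In 22Rv1 cells HK1 (all lower) and PFKP (all higher) did not overlap yet were not called, while HK2 and PFKL were called and overlapped. Without CTRL sh replicate 1 or 2 only 1 gene was called lower in 22Rv1 cells in place of 4, and without CTRL sh replicate 3 or CPSF1 sh2 replicate 2 there were 2. Without CPSF1 sh1 replicate 1 or 3 there were 2 higher in place of 1.

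**Figure D1:**
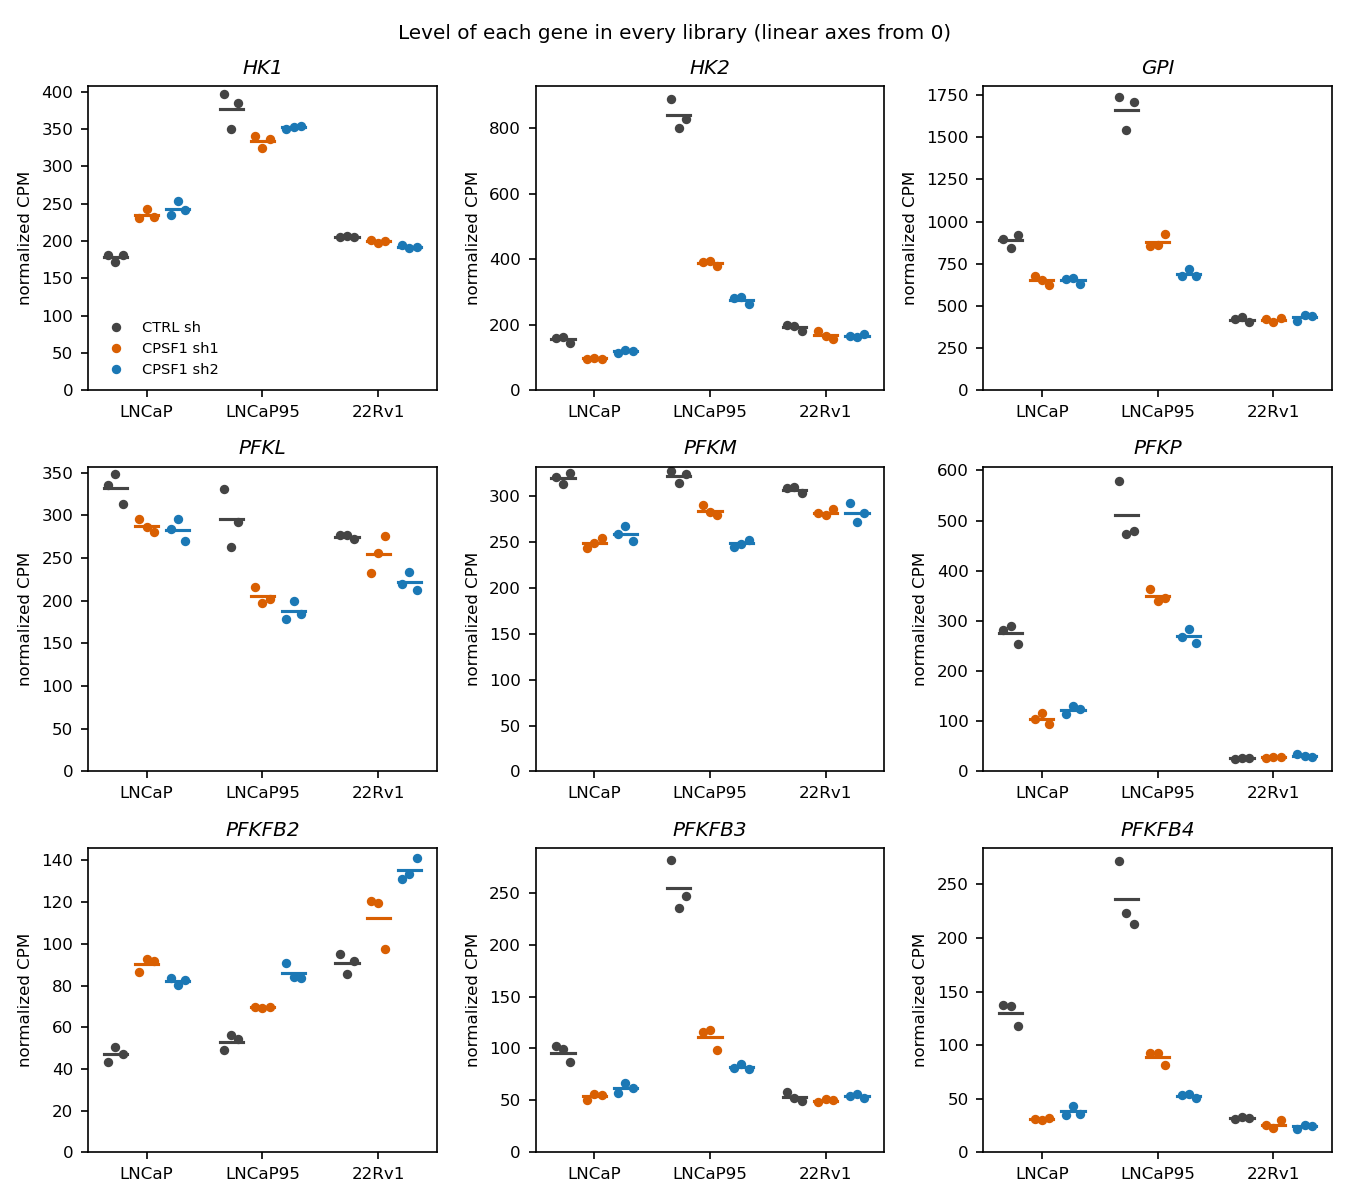
Normalized CPM of the 9 genes in each of the 27 libraries, on linear axes that start at 0, with 3 points per group and a bar at the group mean (grey, CTRL sh, orange, CPSF1 sh1, blue, CPSF1 sh2). LNCaP95 controls stand highest for HK1, HK2, GPI, PFKP, PFKFB3 and PFKFB4, and PFKFB2 is the gene whose CPSF1 sh libraries lie above the controls in all 3 lines.

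HK1 (chr10:71029740-71161638, plus strand, GRCh37) encodes the hexokinase found in most tissues, which binds to mitochondria. In LNCaP cells its level was 181, 173 and 182 CPM in the 3 CTRL sh libraries, 231, 243 and 232 CPM with CPSF1 sh1 and 235, 254 and 242 CPM with CPSF1 sh2. All 6 knockdown libraries lay above the controls, and HK1 was 1.34-fold higher (log2 fold change 0.42 ± 0.04 SE, adjusted p = 2.93e-07). The LNCaP95 libraries held 397, 349.5 and 385 CPM with CTRL sh, 341, 325 and 336 CPM with CPSF1 sh1 and 350.3, 353 and 354 CPM with CPSF1 sh2. These groups overlapped, and the log2 fold change was -0.14 ± 0.05 (SE, adjusted p = 0.0239), a call that was lost without CTRL sh replicate 1 (adjusted p = 0.136) or replicate 3 (adjusted p = 0.0953) and with scaling by library size alone (log2 fold change -0.05, adjusted p = 0.34). For 22Rv1 cells the values were 205, 207 and 205 CPM, 201, 198 and 200.3 CPM and 195, 191 and 192 CPM in the same order of groups. The knockdown libraries lay just below the controls, with a log2 difference of -0.07, 95% interval -0.15 to 0.01, adjusted p = 0.19. HKDC1, a hexokinase-like gene that ends 2425 bases upstream of HK1 on the same strand, reached at most 6 counts in any library.

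HK2 (chr2:75061108-75120486, plus strand) encodes the inducible hexokinase that is raised in many tumours. In LNCaP cells it held 161, 164 and 145 CPM with CTRL sh, 96.6, 100.3 and 96.6 CPM with CPSF1 sh1 and 115, 123 and 119 CPM with CPSF1 sh2. HK2 was 1.44-fold lower, with a log2 fold change of -0.52 ± 0.07 (SE, adjusted p = 2.57e-05), opposite in sign to HK1 in the same cells. The LNCaP95 controls were far above those of the other lines at 889, 800.5 and 827 CPM, and they fell to 391, 395 and 381 CPM with CPSF1 sh1 and 281, 284 and 262 CPM with CPSF1 sh2. This was a fall of 60.3%, with a log2 fold change of -1.33 ± 0.12 (SE, adjusted p = 1.77e-06) and no overlap. In 22Rv1 cells the groups held 198, 198 and 180.2 CPM, 182, 166 and 156 CPM and 165, 162 and 171 CPM. One CPSF1 sh1 library lay within the control range, and the log2 fold change was -0.21 ± 0.05 (SE, adjusted p = 0.00963), which was not called without CTRL sh replicate 1 (adjusted p = 0.0635) or replicate 2 (adjusted p = 0.0664).

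The ratio of HK2 to HK1, from which library size cancels, moved with these differences in LNCaP and LNCaP95 cells. Ratios between paralogs are given as ratios of TPM, and the test was run on the log2 ratio of the read counts, which differs from it by the constant ratio of exon lengths. In LNCaP cells it was 0.912 ± 0.0778 (SD, n = 3) with CTRL sh and 0.470 ± 0.0420 (SD, n = 6) with CPSF1 sh (exact permutation test, two-sided p = 0.0119, adjusted p = 0.0195). The LNCaP95 ratio was 2.31 ± 0.0752 (SD, n = 3) with CTRL sh and 1.01 ± 0.221 (SD, n = 6) with CPSF1 sh (exact permutation test, two-sided p = 0.0119, adjusted p = 0.0195). No control library overlapped a knockdown library in either line. In 22Rv1 cells the ratio was 0.970 ± 0.0507 (SD, n = 3) with CTRL sh and 0.883 ± 0.0465 (SD, n = 6) with CPSF1 sh (exact permutation test, two-sided p = 0.0714, adjusted p = 0.0857), a difference that did not pass with all libraries but did without CPSF1 sh1 replicate 1 (adjusted p = 0.0459) or CTRL sh replicate 3 (adjusted p = 0.0495). The smallest p that 84 splits of 9 libraries allow is 0.0119, and p-values were adjusted over 18 tests, 6 ratios in 3 lines. In TPM, HK2 was 69.8% ± 0.691 (SD, n = 3) of the 2 hexokinases in LNCaP95 controls, 54.7% ± 0.966 with CPSF1 sh1 and 44.8% ± 1.14 with CPSF1 sh2, so that HK1 was the larger share with CPSF1 sh2. The summed TPM of both genes was 190.3 ± 4.04 (SD, n = 3) in LNCaP controls and 194 ± 14.3 (SD, n = 6) with CPSF1 sh. The hairpins stood apart there, at 176.3-190.7 TPM with CPSF1 sh1 and 193.9-215.1 TPM with CPSF1 sh2. The LNCaP controls held 185.6-193.0 TPM, below every CPSF1 sh2 library. In LNCaP95 cells the sum was 681 ± 34.3 with CTRL sh and 403 ± 37.2 with CPSF1 sh.

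GPI (chr19:34850385-34893061, plus strand), the single gene for the isomerase step, was the most abundant of the 9 per length in the controls of each line. The LNCaP values were 898, 845 and 922 CPM with CTRL sh, 678, 655 and 627 CPM with CPSF1 sh1 and 660.0, 665 and 633 CPM with CPSF1 sh2. GPI was 1.36-fold lower with no overlap (log2 fold change -0.44 ± 0.04 SE, adjusted p = 1.03e-07). LNCaP95 cells held 1737, 1542 and 1709 CPM with CTRL sh, 856, 864 and 925 CPM with CPSF1 sh1 and 675, 717 and 675 CPM with CPSF1 sh2. This 2.12-fold lower level (log2 fold change -1.08 ± 0.10 SE, adjusted p = 1.32e-06) brought CPSF1 sh2 LNCaP95 cells to 675-717 CPM, where LNCaP cells with the same hairpin held 633-665 CPM on a scale set separately for that line. In 22Rv1 cells GPI held 422, 434 and 403 CPM, 426, 404 and 428 CPM and 414, 446 and 439 CPM in the 3 groups. These overlapped fully, with a log2 difference of 0.02, 95% interval -0.07 to 0.11, adjusted p = 0.734. The nearest gene upstream on the same strand, KIAA0355, ends 3894 bases before GPI and had log2 fold changes of -0.27 for LNCaP (adjusted p = 0.000459), -0.79 for LNCaP95 (adjusted p = 1.02e-05) and 0.03 for 22Rv1 cells (adjusted p = 0.863).

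Among the phosphofructokinases, PFKL (chr21:45719934-45747259, plus strand) encodes the liver type. Its LNCaP level was 336, 348 and 313 CPM with CTRL sh, 295, 286 and 280.1 CPM with CPSF1 sh1 and 283, 295 and 269 CPM with CPSF1 sh2. The control libraries lay above all knockdown libraries, by a log2 fold change of -0.22 ± 0.04 (SE, adjusted p = 0.000204). In LNCaP95 cells the values were 331, 263 and 292 CPM, 217, 197 and 202 CPM and 178, 199.7 and 185 CPM, and PFKL was 1.5-fold lower (log2 fold change -0.59 ± 0.07 SE, adjusted p = 1.5e-05). The 22Rv1 values were 277, 277 and 272 CPM, 232, 256 and 275 CPM and 219.7, 233 and 213 CPM. One CPSF1 sh1 library, replicate 3, reached the controls, and over all genes it was the farthest from its own replicates. The log2 fold change of -0.21 ± 0.07 (SE, adjusted p = 0.0336) lost its call when any 1 of 7 libraries was left out (all but CPSF1 sh1 replicates 2 and 3).

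PFKM (chr12:48498922-48540187, plus strand), the muscle type, had the most even levels: 321, 313 and 325 CPM in LNCaP controls, 327, 314 and 324 CPM in LNCaP95 controls and 308, 309.6 and 303 CPM in 22Rv1 controls. With CPSF1 sh1 and CPSF1 sh2 it held 244, 249 and 254 CPM and 258, 267 and 251 CPM in LNCaP cells. The LNCaP95 libraries held 289.9, 283 and 279 CPM and 245, 248 and 252 CPM, and the 22Rv1 libraries 281, 279 and 285 CPM and 292, 271 and 281 CPM. No knockdown library overlapped its controls in any line. The log2 fold changes were -0.33 ± 0.03 (SE, adjusted p = 1.13e-06) in LNCaP, -0.27 ± 0.06 (SE, adjusted p = 0.00121) in LNCaP95 and -0.12 ± 0.04 (SE, adjusted p = 0.0224) in 22Rv1 cells, where the call was lost without any 1 CTRL sh library (adjusted p = 0.0581 to 0.108) or without CPSF1 sh2 replicate 2 (adjusted p = 0.0557).

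PFKP (chr10:3108525-3179904, plus strand), the platelet type, differed most between lines. In LNCaP cells it held 283, 289 and 255 CPM with CTRL sh, 105, 117 and 93.6 CPM with CPSF1 sh1 and 114, 131 and 124 CPM with CPSF1 sh2. PFKP was 2.40-fold lower with knockdown (log2 fold change -1.27 ± 0.08 SE, adjusted p = 4.33e-09), the largest change among the phosphofructokinases. LNCaP95 cells held 579, 473 and 479 CPM, 363, 339 and 345 CPM and 268, 283 and 257 CPM, with a log2 fold change of -0.72 ± 0.11 (SE, adjusted p = 7.52e-05). In 22Rv1 cells, where PFKP is low, the libraries held 25.5, 26.0 and 25.8 CPM with CTRL sh, 27.5, 28.5 and 27.8 CPM with CPSF1 sh1 and 35.0, 30.2 and 29.5 CPM with CPSF1 sh2. All 6 knockdown libraries lay above the 3 controls, yet the pooled log2 difference did not pass (0.21, 95% interval 0.04 to 0.38, adjusted p = 0.0675). It passed with the hairpins as separate groups whose effects were averaged (adjusted p = 0.0254), with CPSF1 sh2 alone (log2 fold change 0.30, adjusted p = 0.00146) and without CPSF1 sh1 replicate 1 (adjusted p = 0.0492) or 3 (adjusted p = 0.031).

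Ratios between the phosphofructokinases differed by line. PFKP over PFKL in LNCaP cells was 0.592 ± 0.00961 (SD, n = 3) with CTRL sh and 0.287 ± 0.0352 (SD, n = 6) with CPSF1 sh (exact permutation test, two-sided p = 0.0119, adjusted p = 0.0195). The LNCaP95 ratio was 1.24 ± 0.0578 (SD, n = 3) with CTRL sh and 1.12 ± 0.107 (SD, n = 6) with CPSF1 sh (exact permutation test, two-sided p = 0.155, adjusted p = 0.164), a difference that did not pass. In 22Rv1 cells it was 0.0670 ± 0.000897 (SD, n = 3) with CTRL sh and 0.0904 ± 0.0150 (SD, n = 6) with CPSF1 sh (exact permutation test, two-sided p = 0.0357, adjusted p = 0.0495) and lay higher with knockdown, a call that was lost without CTRL sh replicate 1, 2 or 3 or CPSF1 sh2 replicate 2 or 3 (adjusted p = 0.0689 to 0.0989). PFKM over PFKL in LNCaP95 cells was 0.615 ± 0.0581 (SD, n = 3) with CTRL sh and 0.759 ± 0.0358 (SD, n = 6) with CPSF1 sh (exact permutation test, two-sided p = 0.0119, adjusted p = 0.0195). It did not pass in LNCaP (adjusted p = 0.121) or 22Rv1 cells (adjusted p = 0.357) by the same exact permutation test, though without CTRL sh replicate 2 it did in LNCaP cells (adjusted p = 0.0459). In LNCaP95 cells none of the 6 ratios passed without CTRL sh replicate 1 or 2 (smallest adjusted p = 0.0536), against 5 with all libraries, and in 22Rv1 cells, where 3 passed, none did without CTRL sh replicate 2 and 1 did without CPSF1 sh2 replicate 2. With a library left out there are fewer splits to permute, so the smallest possible p is larger. A call lost in this way does not by itself show a smaller change. PFKP made up 43.4% ± 1.32 (SD, n = 3) of the summed phosphofructokinase TPM in LNCaP95 controls, 27.8% ± 0.767 in LNCaP controls and 3.96% ± 0.0507 in 22Rv1 controls. With knockdown its share was 16.0% ± 1.56 (SD, n = 6) in LNCaP cells, and PFKL went from 46.9% ± 0.735 to 56.0% ± 1.57 of the sum.

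PFKFB2 (chr1:207222801-207254369, plus strand), the heart type of the bifunctional enzymes, was the member that rose in each line. LNCaP cells held 43.4, 50.6 and 47.1 CPM with CTRL sh, 86.5, 92.6 and 91.5 CPM with CPSF1 sh1 and 83.7, 80.0 and 82.5 CPM with CPSF1 sh2. It was 1.83-fold higher (log2 fold change 0.87 ± 0.06 SE, adjusted p = 2.22e-08), with all 6 knockdown libraries above the controls. For LNCaP95 cells the values were 48.9, 56.3 and 54.2 CPM, 69.6, 69.2 and 69.9 CPM and 90.7, 84.1 and 83.5 CPM, a 1.46-fold higher level (log2 fold change 0.55 ± 0.10 SE, adjusted p = 0.000252). The 22Rv1 libraries held 95.1, 85.7 and 91.6 CPM, 120.5, 119 and 97.5 CPM and 131, 134 and 141 CPM, a 1.36-fold higher level (log2 fold change 0.45 ± 0.09 SE, adjusted p = 0.00258). The groups did not overlap in any line. YOD1 lies on the opposite strand over part of PFKFB2, and the counting used strand.

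PFKFB3 (chr10:6186881-6277495, plus strand) encodes the form with the strongest kinase activity, a known target of hypoxia signalling. The LNCaP libraries held 102, 99.3 and 86.8 CPM with CTRL sh, 50.8, 56.2 and 55.3 CPM with CPSF1 sh1 and 57.4, 66.6 and 62.2 CPM with CPSF1 sh2. PFKFB3 was 1.65-fold lower (log2 fold change -0.72 ± 0.07 SE, adjusted p = 7.61e-07). LNCaP95 values went from 281, 235 and 247 CPM to 116, 118 and 98.3 CPM with CPSF1 sh1 and 81.0, 84.7 and 79.8 CPM with CPSF1 sh2, a 2.64-fold lower level (log2 fold change -1.40 ± 0.12 SE, adjusted p = 9.44e-07). In 22Rv1 cells the groups held 58.4, 52.8 and 49.5 CPM, 48.2, 51.5 and 50.1 CPM and 54.5, 55.9 and 52.3 CPM. They overlapped, with a log2 difference of -0.04, 95% interval -0.18 to 0.09, adjusted p = 0.642.

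PFKFB4 (chr3:48555117-48599448, minus strand), a further hypoxia-inducible form known from testis and tumours, showed the largest fall of the 9 in LNCaP and LNCaP95 cells. In LNCaP cells it held 137, 136 and 117 CPM with CTRL sh, 31.2, 30.3 and 31.8 CPM with CPSF1 sh1 and 34.9, 43.5 and 36.1 CPM with CPSF1 sh2. PFKFB4 was 3.73-fold lower (log2 fold change -1.90 ± 0.09 SE, adjusted p = 3.15e-10). LNCaP95 cells held 271, 223 and 213 CPM, 93.0, 92.6 and 81.5 CPM and 53.6, 54.8 and 50.5 CPM, a 3.30-fold lower level (log2 fold change -1.72 ± 0.18 SE, adjusted p = 4.57e-06). The 22Rv1 libraries held 30.9, 32.6 and 32.2 CPM, 25.4, 22.8 and 29.8 CPM and 22.2, 25.9 and 24.6 CPM. Control and knockdown libraries did not overlap in any line, and the 22Rv1 log2 fold change was -0.34 ± 0.08 (SE, adjusted p = 0.0079).

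Both genes next to PFKFB4 on its 5′ side stood higher with knockdown. COL7A1, a collagen gene that ends 2058 bases upstream, held 22.1-31.2 CPM in LNCaP95 controls and 80.2-127 CPM with CPSF1 sh, with log2 fold changes of 0.92 for LNCaP (adjusted p = 5.05e-06), 1.96 for LNCaP95 (adjusted p = 5.03e-07) and 0.62 for 22Rv1 cells (adjusted p = 0.000793). UCN2, a peptide hormone gene that overlaps the annotated PFKFB4 span on the same strand, was below the filter but held 0.188-0.335 CPM in LNCaP controls against 1.08-3.52 CPM with CPSF1 sh. The same ranges were 0.0723-0.270 and 1.93-5.54 CPM in LNCaP95 cells, and 0.412-0.917 and 1.52-3.51 CPM in 22Rv1 cells. UCN2 reached at most 61 counts in any library, and COL7A1 and UCN2 were chosen by position, not by their values. How reads over both UCN2 and PFKFB4 were assigned is not given in the sources used here, and their part in the PFKFB4 values was not tested.

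The makeup of the PFKFB family turned with knockdown. PFKFB4 over PFKFB2 in LNCaP cells was 5.0 ± 0.616 (SD, n = 3) with CTRL sh and 0.728 ± 0.143 (SD, n = 6) with CPSF1 sh (exact permutation test, two-sided p = 0.0119, adjusted p = 0.0195). In LNCaP95 cells this ratio was 8.05 ± 1.66 (SD, n = 3) with CTRL sh and 1.70 ± 0.664 (SD, n = 6) with CPSF1 sh (exact permutation test, two-sided p = 0.0119, adjusted p = 0.0195). The 22Rv1 ratio was 0.632 ± 0.0495 (SD, n = 3) with CTRL sh and 0.373 ± 0.0904 (SD, n = 6) with CPSF1 sh (exact permutation test, two-sided p = 0.0119, adjusted p = 0.0195). PFKFB3 over PFKFB2 also fell in each line, by log2 ratio changes of -1.60, -1.96 and -0.48 in LNCaP, LNCaP95 and 22Rv1 cells (adjusted p = 0.0195 in each, exact permutation test). PFKFB4 also fell against PFKFB3 in LNCaP (adjusted p = 0.0195) and LNCaP95 cells (adjusted p = 0.0357, lost without CTRL sh replicate 1 or 2 or any 1 CPSF1 sh2 library), while the difference did not pass in 22Rv1 cells (adjusted p = 0.0765, all by the exact permutation test). It passed there without CTRL sh replicate 1 (adjusted p = 0.0495) or CPSF1 sh1 replicate 3 (adjusted p = 0.0268). In TPM, PFKFB4 made up 51.0% ± 0.552 (SD, n = 3) of the 3 genes in LNCaP controls and PFKFB2 10.3% ± 1.12. With CPSF1 sh these shares were 24.2% ± 2.09 and 33.8% ± 3.43 (SD, n = 6), so that their order was exchanged. PFKFB2 went from 5.67% ± 0.911 to 21.0% ± 5.47 in LNCaP95 and from 36.7% ± 1.30 to 46.5% ± 3.42 in 22Rv1 cells. The share of PFKFB3 was 38.7% ± 0.650 in LNCaP controls and 41.9% ± 1.64 with knockdown. Summed over the 3 genes, TPM was 161 ± 12.1 and 88.5 ± 6.88 for LNCaP, 325 ± 32.5 and 141 ± 23.7 for LNCaP95, and 85.3 ± 4.58 and 92.7 ± 6.83 for 22Rv1 (CTRL sh, then CPSF1 sh). These shares are a description, and the ratios carry the tests.

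**Figure D2:**
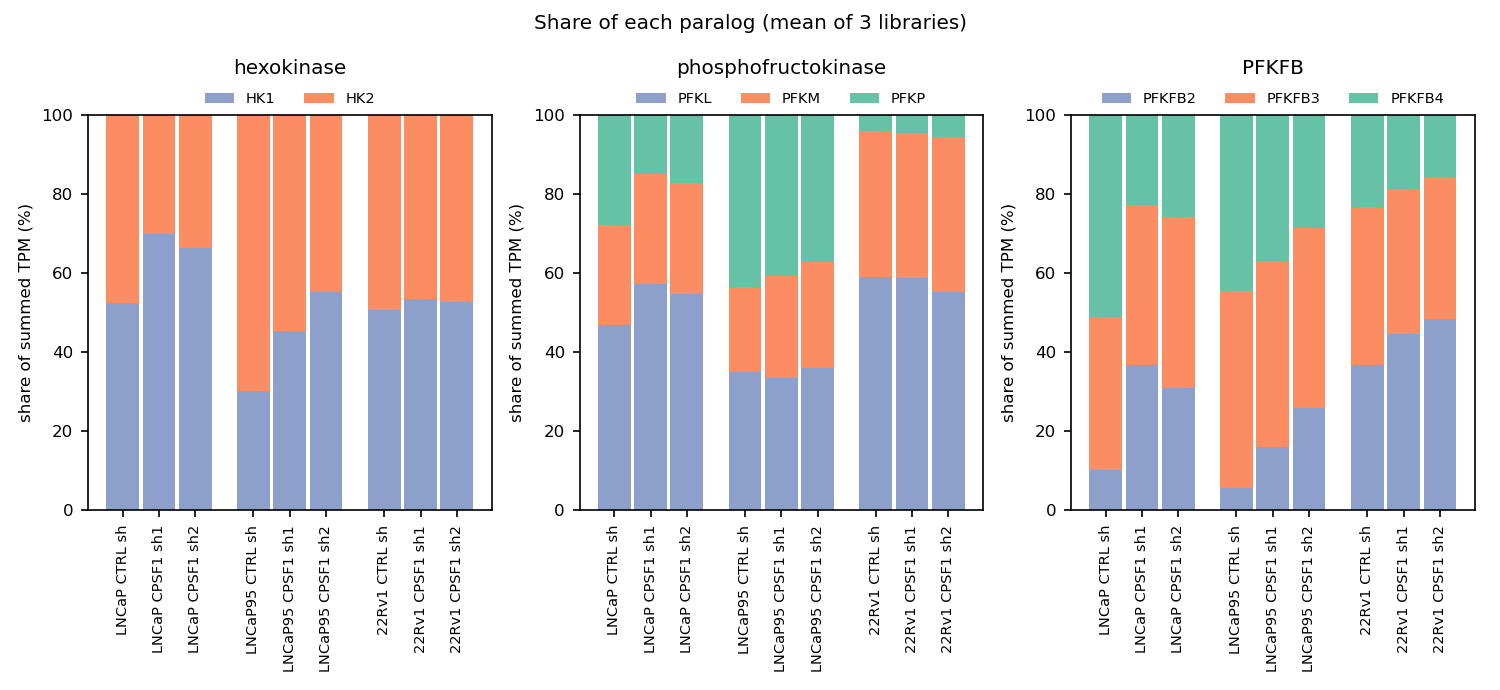
Share of each paralog in the summed TPM of its family, as percent, for the 9 groups (mean of 3 libraries each), with hexokinases at the left, phosphofructokinases in the middle and PFKFB genes at the right. PFKFB2 takes 10.3% in LNCaP controls, 36.6% with CPSF1 sh1 and 31.0% with CPSF1 sh2, and PFKP takes 3.96% in 22Rv1 controls.

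**Figure D3:**
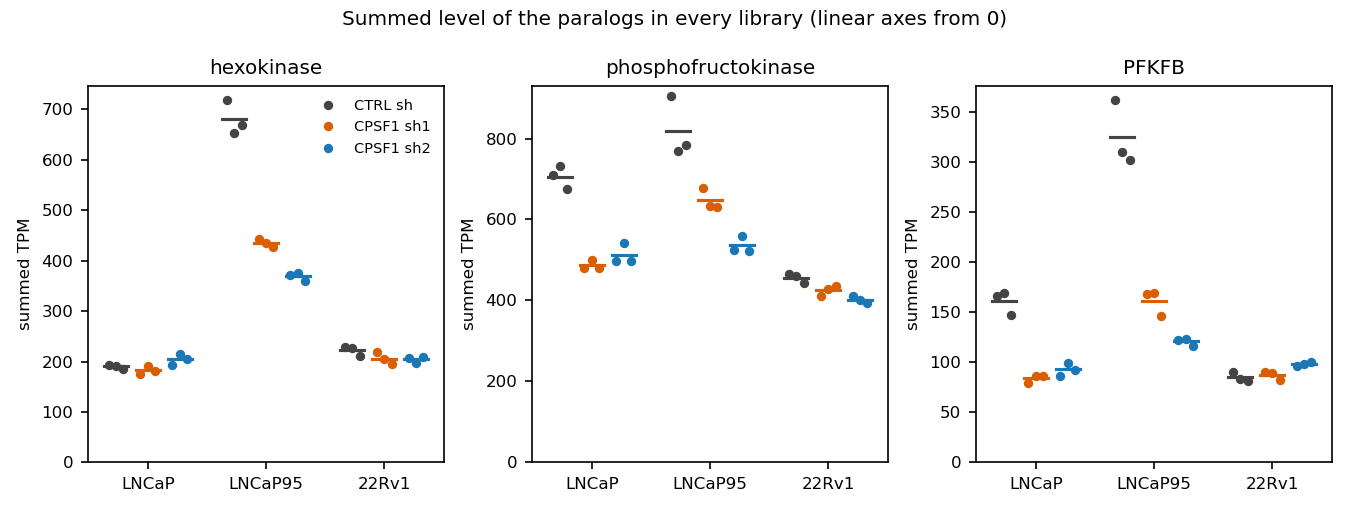
Summed TPM of the hexokinases, phosphofructokinases and PFKFB genes in each library, on linear axes that start at 0, with 3 points per group and a bar at the mean. The LNCaP95 controls are the highest group in each panel. In LNCaP cells the hexokinase sum is 183 ± 7.24 (SD, n = 3) with CPSF1 sh1 and 204.6 ± 10.6 with CPSF1 sh2, against 190.3 ± 4.04 in controls.

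The same genes stood at different levels in the 3 lines with the control hairpin. In LNCaP95 controls the order by TPM was GPI (1179 ± 62.1, SD, n = 3), HK2 (475 ± 24.3), PFKP (356 ± 41.4), PFKL (288 ± 31.7), HK1 (206 ± 11.4), PFKM (176 ± 2.43), PFKFB3 (161 ± 14.8), PFKFB4 (145 ± 19.5) and PFKFB2 (18.2 ± 1.43). PFKM and PFKFB3, and PFKFB3 and PFKFB4, overlapped between libraries there. In LNCaP controls GPI was again first (644 ± 26.3), followed by PFKL (331 ± 18.6), PFKP (196 ± 13.2), PFKM (178 ± 2.87), HK1 (99.6 ± 2.40), HK2 (90.7 ± 5.82), PFKFB4 (82.0 ± 6.97), PFKFB3 (62.3 ± 5.16) and PFKFB2 (16.5 ± 1.38), and HK2 and PFKFB4 were the only neighbours whose libraries overlapped. In 22Rv1 controls the order was GPI (299.7 ± 14.3), PFKL (269.7 ± 6.33), PFKM (168 ± 4.11), HK1 (113 ± 1.80), HK2 (109.6 ± 7.43), PFKFB3 (34.2 ± 3.38), PFKFB2 (31.3 ± 1.85), PFKFB4 (19.7 ± 0.408) and PFKP (18.1 ± 0.219). HK1 and HK2, and PFKFB3 and PFKFB2, overlapped in that line.

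Between CTRL sh groups of 2 lines, 7 of the 9 genes differed between LNCaP95 and LNCaP, 8 between 22Rv1 and LNCaP, and 7 between 22Rv1 and LNCaP95, where 80.3%, 82.5% and 84.3% of 10317 genes were called (edgeR, one fit of all 27 libraries). HK2 was 5.28-fold higher in LNCaP95 than in LNCaP controls (log2 difference 2.40 ± 0.05 SE, adjusted p = 2.41e-27), and PFKFB3 2.61-fold higher. HK1, GPI, PFKP and PFKFB4 were also higher there, by log2 differences of 1.06, 0.88, 0.87 and 0.84. PFKL was lower by a log2 difference of -0.19, a call that was lost without LNCaP95 CTRL sh replicate 2 (-0.11, adjusted p = 0.0947), and PFKFB2, at 0.15 (adjusted p = 0.0619), passed without LNCaP CTRL sh replicate 2 (0.21, adjusted p = 0.0218) or LNCaP95 CTRL sh replicate 1 (0.21, adjusted p = 0.0153). PFKP was 10.7-fold lower in 22Rv1 than in LNCaP controls and 19.5-fold lower than in LNCaP95 controls. PFKFB2 was 1.93-fold higher in 22Rv1 than in LNCaP controls, and HK1 and HK2 were also higher, by log2 differences of 0.20 and 0.30. PFKM was called in none of the 3 comparisons. Its largest log2 difference, between 22Rv1 and LNCaP, was -0.06, 95% interval -0.13 to 0.01, adjusted p = 0.109. It passed with the looser filterByExpr filter (-0.12, adjusted p = 0.0031) and with no filter (-0.11, adjusted p = 0.0111). Between 22Rv1 and LNCaP95 controls PFKM also passed with filterByExpr (-0.11, adjusted p = 0.00584) and with no filter (-0.09, adjusted p = 0.0378). PFKL, not called there (-0.08, adjusted p = 0.208), passed with filterByExpr (-0.14, adjusted p = 0.0372) and with no filter (-0.13, adjusted p = 0.0464).

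Taken one at a time, the hairpins gave 9 changed genes with CPSF1 sh1 and 9 with CPSF1 sh2 in LNCaP cells (62.6% and 64.6% of all genes tested), 9 and 8 in LNCaP95 cells (66.4% and 73.4%), and 4 and 6 in 22Rv1 cells (19.9% and 40%). Both comparisons share the CTRL sh libraries of their line. The gene missing from CPSF1 sh2 in LNCaP95 cells was HK1 (log2 fold change -0.10 ± 0.04 SE, adjusted p = 0.0505). In 22Rv1 cells HK2, PFKM, PFKFB2 and PFKFB4 were called with both hairpins, and PFKL and PFKP with CPSF1 sh2. Without CTRL sh replicate 1, CTRL sh replicate 2 or CPSF1 sh1 replicate 2 the 22Rv1 count for CPSF1 sh1 was 1, and without CTRL sh replicate 3 or CPSF1 sh1 replicate 1 it was 2. No gene of the 9 was called in opposite directions by the 2 hairpins of a line.

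**Figure D4:**
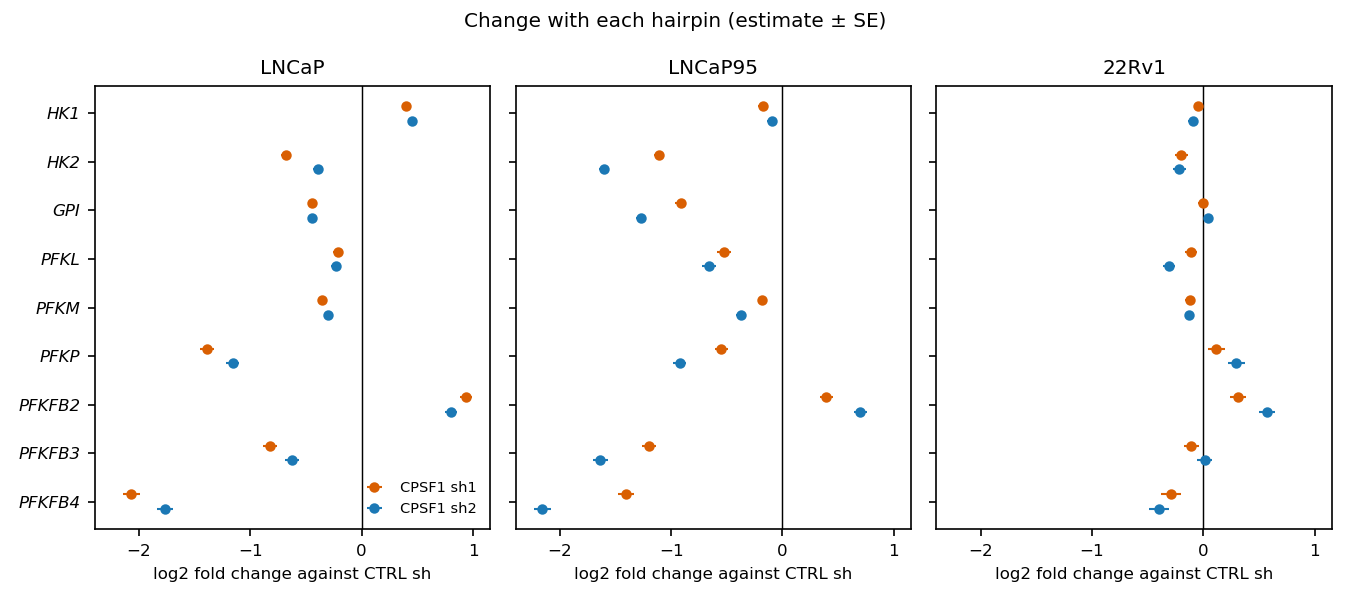
Log2 fold change of each gene against CTRL sh with CPSF1 sh1 (orange) and CPSF1 sh2 (blue) in the 3 lines, as the edgeR estimate with its SE. In LNCaP95 cells the CPSF1 sh2 points lie farther from 0 for HK2, GPI, PFKL, PFKM, PFKP, PFKFB2, PFKFB3 and PFKFB4, and nearer to it for HK1. The PFKL difference between hairpins did not pass there (-0.13, adjusted p = 0.121 by edgeR). In 22Rv1 cells the points lie within 0.58 of 0.

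Tested directly against each other, the 2 hairpins differed for 7 genes in LNCaP95 cells, 3 in LNCaP cells and 2 in 22Rv1 cells, where 34.1%, 14.8% and 11.3% of all genes were called. In LNCaP95 cells CPSF1 sh2 was the farther from the controls for each of the 7: PFKFB4 was lower than with CPSF1 sh1 by a log2 difference of -0.75 ± 0.08 (SE, adjusted p = 8.09e-07), HK2 by -0.50 ± 0.04 (SE, adjusted p = 8.96e-08), PFKFB3 by -0.44 ± 0.07 (SE, adjusted p = 8e-05), PFKP by -0.37 ± 0.06 (SE, adjusted p = 9.52e-05), GPI by -0.36 ± 0.05 (SE, adjusted p = 1.1e-05) and PFKM by -0.19 ± 0.04 (SE, adjusted p = 0.00059), while PFKFB2 was higher (0.31 ± 0.05 SE, adjusted p = 0.000266). CPSF1 itself had a log2 difference between the hairpins of 0.00 ± 0.08 (SE, adjusted p = 0.998). In LNCaP cells it was CPSF1 sh1 that lay farther from the controls, with HK2, PFKFB4 and PFKP higher with CPSF1 sh2 by log2 differences of 0.29 ± 0.05 (SE, adjusted p = 0.000476), 0.30 ± 0.09 (SE, adjusted p = 0.0241) and 0.23 ± 0.07 (SE, adjusted p = 0.0257). CPSF1 was -0.14 on the log2 scale with CPSF1 sh2 against CPSF1 sh1 in LNCaP cells (adjusted p = 0.0773). Without CPSF1 sh2 replicate 2 the count in LNCaP cells was 1. The PFKP call there was also lost without CPSF1 sh1 replicate 3 or CPSF1 sh2 replicate 3 and with DESeq2 (adjusted p = 0.136), and the PFKFB4 call without CPSF1 sh1 replicate 2 (adjusted p = 0.0841). In 22Rv1 cells PFKL was lower (-0.20 ± 0.06 SE, adjusted p = 0.0312) and PFKFB2 higher (0.27 ± 0.07 SE, adjusted p = 0.024) with CPSF1 sh2, a count of 2 that went to 1 without any 1 CTRL sh library, CPSF1 sh1 replicate 2 or CPSF1 sh2 replicate 2 and to 0 in edgeR without CPSF1 sh2 replicate 1 (2 genes at an unadjusted p below 0.05) or 3 (3 genes).

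Whether knockdown acted alike in the 3 lines was tested as the difference between their effects in the fit of all 27 libraries. The effect differed for 7 of the 9 genes between LNCaP95 and LNCaP, 8 between 22Rv1 and LNCaP and 7 between 22Rv1 and LNCaP95, where 59.7%, 50.3% and 61.6% of 10317 genes were called. HK1 stood on opposite sides, at 0.42 in LNCaP and -0.14 in LNCaP95 cells (difference of log2 effects -0.54 ± 0.05 SE, adjusted p = 7.32e-11). HK2, GPI, PFKL and PFKFB3 fell more in LNCaP95 than in LNCaP cells, with differences of log2 effects of -0.80, -0.63, -0.35 and -0.68. PFKP went the other way and fell more in LNCaP cells (0.56 ± 0.08 SE, adjusted p = 9.98e-07). PFKFB2 rose less in LNCaP95 cells (-0.31). The 2 genes not called different between these lines were PFKM (0.07, 95% interval -0.01 to 0.16, adjusted p = 0.14) and PFKFB4 (0.15, 95% interval -0.05 to 0.36, adjusted p = 0.198). PFKFB4 was called without LNCaP95 CTRL sh replicate 1 (0.26, adjusted p = 0.015), and PFKM with scaling by library size alone (0.15, adjusted p = 0.00314). PFKL was the only gene whose effect in 22Rv1 cells was not called different from that in LNCaP cells (0.02, 95% interval -0.13 to 0.18, adjusted p = 0.822). Against LNCaP95 cells the 2 were HK1 (0.06, 95% interval -0.04 to 0.16, adjusted p = 0.281) and PFKFB2 (-0.11, 95% interval -0.27 to 0.06, adjusted p = 0.244), and HK1 was called without LNCaP95 CTRL sh replicate 2 (0.11, adjusted p = 0.0319).

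The other genes around the upper steps held members on both sides. Of 14 such genes, 6 were tested in LNCaP and in LNCaP95 cells and 7 in 22Rv1 cells, and 1 was lower and 4 were higher in LNCaP, 1 lower and 2 higher in LNCaP95, and 1 lower in 22Rv1 cells, with median log2 fold changes of 0.21, -0.03 and 0.05. C12orf5 (TIGAR), a phosphatase that opposes the PFKFB kinases, rose in LNCaP by 0.54 (adjusted p = 6.15e-06) and in LNCaP95 cells by 0.77 (adjusted p = 1.53e-05), with 0.05 (adjusted p = 0.828) in 22Rv1 cells. ADPGK, which phosphorylates glucose with ADP, was higher by 0.15 (adjusted p = 0.00351) and 0.13 (adjusted p = 0.0221) in LNCaP and LNCaP95 cells. PGM1, which links glycogen to the hexokinase product, fell in LNCaP (-0.57, adjusted p = 6.66e-08) and 22Rv1 cells (-0.29, adjusted p = 0.0222). PGM2, a related phosphoglucomutase, rose in LNCaP cells (0.30, adjusted p = 0.00017), and G6PC3 fell in LNCaP95 cells (-0.34, adjusted p = 0.000365). HK3, GCKR, HKDC1, PFKFB1, FBP1, FBP2 and G6PC passed the filter in no line.

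The later steps, from aldolase to pyruvate kinase, were mostly lower in LNCaP and LNCaP95 cells. Of 13 genes 11 were tested in each line, and 9 were lower in LNCaP and 10 in LNCaP95 cells, the others not passing, and 5 were lower and 1 higher in 22Rv1 cells, with median log2 fold changes of -0.24, -0.63 and -0.11. Over all genes tested the shares called lower were 31%, 33.7% and 14.3%. The lowest were the enolase ENO2 in LNCaP (-2.50, adjusted p = 9.15e-10) and LNCaP95 cells (-1.88, adjusted p = 5.96e-06) and the aldolase ALDOC in 22Rv1 cells (-0.86, adjusted p = 0.000455). The highest in each line was BPGM, which diverts an intermediate to a side branch, at 0.11 (adjusted p = 0.142), 0.08 (adjusted p = 0.301) and 0.27 (adjusted p = 0.00711) in LNCaP, LNCaP95 and 22Rv1 cells. The medians of these genes and of the 9 upper enzymes had the same sign in each line.

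Over the 27 libraries, after subtracting the mean of each line's controls from log2 CPM, the genes whose pattern was nearest to PFKFB4 by Pearson correlation were MXI1 (0.99) and ZNF395 (0.98), the nearest to HK2 ARHGAP19 (0.99) and BUB1 (0.98), and the nearest to GPI SLC6A8 (0.99) and TPD52 (0.98). PFKFB3 ran closest to IARS2 (0.98) and KDM3A (0.98), PFKP to MEX3A (0.98) and ASPH (0.97), PFKM to P4HA1 (0.97) and ERMP1 (0.96) and PFKL to SUN2 (0.98) and WDR13 (0.96). HK1 was nearest to ID2 (0.96) and BICD2 (0.96), and PFKFB2 to ASCC3 (0.96) and SELT (0.96). Within the 9, HK2, GPI and PFKFB3 ran together (correlations of 0.97, 0.97 and 0.98 for their 3 pairs), while PFKFB2 ran opposite to PFKM (-0.92) and PFKFB4 (-0.87) and HK1 was near to none of HK2, GPI and PFKFB3 (0.12, 0.05 and -0.03). All points share the same controls within a line and the same knockdown, so these values describe the libraries and carry no test.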

How the data were processed

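RNA from 27 samples of LNCaP, LNCaP95 and 22Rv1 cells, 3 per line and hairpin, was sequenced by the study on paired-end stranded mRNA libraries. The authors aligned reads to GRCh37 with HISAT2 (version 2.1.0) and counted them per gene, with strand, by featureCounts of Subread (version 2.0.3 in the submitters' processing notes). The deposited values are raw read counts per gene with exon lengths. Columns were assigned to groups by the sample labels, and all 27 were used. Depth was 8515624 to 15904518 counts per library (median 11058723), and counting error is largest for the members with the fewest counts, such as PFKP in 22Rv1 cells. Between replicates of a group, the chi-squared per degree of freedom of the counts ran from 1.38 to 8.00. In 22Rv1 cells CPSF1 sh1 replicate 3 stood 8.00 and 4.95 from replicates 1 and 2, which were 2.05 apart. LNCaP95 CTRL sh replicates 1 and 2 were 5.61 apart.

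Within each line, genes that exceeded 2 CPM in every one of its 9 libraries were fitted with the quasi-likelihood test of edgeR (version 4.0.16) after TMM scaling, as CTRL sh against both CPSF1 hairpins, with each hairpin as a group, and over all 27 libraries for differences between lines. P-values were adjusted by Benjamini-Hochberg over all genes tested, with 0.05 as the threshold, and SE was derived from the fold change and its F statistic. TPM was computed from counts and the deposited exon lengths. Paralog ratios are given in TPM and were tested on log2 count ratios, with a pseudocount of 0.5 and exact permutation over 84 splits. Genes named as alike are the best 2 per member by Pearson correlation. All 9 members are named, with the other pathway genes that passed and their list extremes. The members and lists were chosen with earlier results of these data known. The alternatives were DESeq2 (version 1.42.0), RLE factors, library size alone, other filters, other hairpin groupings, a replicate block and each library left out. RLE factors and no filter for hairpin and line differences, and all alternatives for single hairpins, were added after seeing the data. The fits were tested on simulated data. Polyadenylation hexamers were read from GRCh37 with the GENCODE lift of MANE Select transcripts, on the transcribed strand, AATAAA taking precedence over ATTAAA. Values of some genes of these lists are not reported here.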

Additional observations from a re-analysis of the deposited data

Results flagged for a closer look

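The knockdown effect differed between cell lines, by an interaction term in the edgeR fit of all 27 libraries, for 22 of the 27 tests (9 genes in 3 pairs of lines). Of 10317 genes, 59.7% were called for LNCaP95 against LNCaP, 50.3% for 22Rv1 against LNCaP and 61.6% for 22Rv1 against LNCaP95. Between LNCaP95 and LNCaP cells the difference of log2 effects was -0.80 for HK2, -0.68 for PFKFB3, -0.63 for GPI, -0.54 for HK1, -0.35 for PFKL, -0.31 for PFKFB2 and 0.56 for PFKP, so that PFKP alone of these had the higher value in LNCaP95. Between 22Rv1 and LNCaP cells it was 1.58 for PFKFB4, 1.49 for PFKP, 0.69 for PFKFB3, 0.48 for GPI, 0.34 for HK2 and 0.22 for PFKM, with -0.48 for HK1 and -0.41 for PFKFB2. Between 22Rv1 and LNCaP95 cells it was 1.43 for PFKFB4, 1.37 for PFKFB3, 1.15 for HK2, 1.11 for GPI, 0.94 for PFKP, 0.37 for PFKL and 0.15 for PFKM. CPSF1 was 1.41-fold lower in 22Rv1, 1.57-fold lower in LNCaP and 1.85-fold lower in LNCaP95 cells. Its log2 effect was 0.39 higher in 22Rv1 than in LNCaP95 cells (adjusted p = 0.000823 by edgeR). Between LNCaP95 and LNCaP cells the difference in the CPSF1 effect was -0.22 (95% interval -0.42 to -0.03, adjusted p = 0.0476 by edgeR). That between 22Rv1 and LNCaP cells did not pass (0.16, 95% interval -0.03 to 0.35, adjusted p = 0.144). The part of CPSF1 in the differences of the 9 genes was not tested.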

How the results depend on the processing

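In LNCaP and LNCaP95 cells the counts of members lower and higher, and in all lines the counts for CPSF1 sh2, for differences between lines and for CTRL sh between lines, stayed within 1.5 times under every alternative run. In 22Rv1 cells CPSF1 sh1 alone gave 0 members lower (3 at an unadjusted edgeR p below 0.05) in place of 4, and members higher went from 1 to 2 with the hairpins averaged and with CPSF1 sh2 alone. DESeq2 gave 2 members changed by CPSF1 sh1 there, in place of 4. Leaving out single libraries gave 1 to 4 members lower, 1 to 2 higher, 1 to 5 changed by CPSF1 sh1 and 0 to 2 differing between hairpins in 22Rv1 cells, and 1 to 4 differing between hairpins in LNCaP cells. With the replicate block that last count was 5 in place of 3. Ratios that changed went to 0, 0 and 0 with the replicate block, where 27 arrangements allow no p below 0.037, and single libraries left out gave 5 to 6, 0 to 5 and 0 to 4 in LNCaP, LNCaP95 and 22Rv1 cells. Replicates of a line with the same number correlated at -0.24 to 0.28 after the mean of each group was subtracted. With 3 libraries per group these values cannot show whether such replicates share a batch. Beyond the counts above, the block ended the calls of PFKL in 22Rv1 cells (adjusted p = 0.0546) and of PFKL between LNCaP95 and LNCaP controls (-0.14, adjusted p = 0.0818), and PFKL between 22Rv1 and LNCaP95 controls passed with it (-0.19, adjusted p = 0.0212). HK1 in 22Rv1 cells passed with CPSF1 sh2 alone (-0.10, adjusted p = 0.0176), and the PFKM effect difference between 22Rv1 and LNCaP95 cells was lost with library size alone (0.08, adjusted p = 0.118). TPM and RPKM differences between lines were within the replicate spread of each other in 27 of 27 cases.

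Direction turned for log2 values near 0, and no value that turned passed the threshold (adjusted p of 0.595 or more). For CPSF1 sh2 against CPSF1 sh1 in LNCaP cells, GPI was 0.0134 with library size alone, 0.00623 without a filter and -0.0301 to 0.0251 with single libraries left out (0.00259 and 0.0218 among them), and PFKL was -0.0532 to 0.0141 with libraries left out. In 22Rv1 cells the same contrast was 0.00142 with DESeq2 and 0.00132 with RLE factors for PFKM, and with single libraries left out -0.0295 to 0.0238 (0.00749 among them) for PFKM, -0.0656 to 0.0458 (0.0019 among them) for HK2 and -0.189 to 0.00297 for PFKFB4. The 22Rv1 fold change of PFKFB3 was 0.00874 with CPSF1 sh2 alone and 0.0238 without CTRL sh replicate 1, and that of GPI -0.00464 to 0.0492 with libraries left out. For CTRL sh, PFKM between LNCaP95 and LNCaP was 0.0142 with the replicate block and -0.0249 to 0.00779 (0.00391 among them) with libraries left out, PFKM between 22Rv1 and LNCaP95 was 0.00957 with library size alone, and PFKL there was -0.167 to 0.00227 with libraries left out, past the threshold at the lower end (adjusted p = 0.0127). The effect difference of PFKL between 22Rv1 and LNCaP was -0.0121 to 0.0626 (-0.00588 among them) with libraries left out, that of HK1 between 22Rv1 and LNCaP95 -0.0118 with library size alone, and the PFKM to PFKL ratio change in 22Rv1 cells -0.00714 with CPSF1 sh1 alone. The cause was not tested. Depth limits PFKP and PFKFB4 in 22Rv1 cells most, the members with the lowest counts there.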
